A study of Mus musculus with 4 samples.

Results

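The genes described here are the collagens and the non-collagen proteins that build the extracellular matrix with them. They were chosen by name: 44 genes whose whole symbol is that of a collagen chain (Col, the type, a, the chain), and 16 others, namely Dcn, Lum, Bgn, Fmod, Ogn, Fbn1, Fn1, Sparc, Eln, Fbln1, Fbln2, Mgp, Lox, Loxl1, Loxl2 and Pcolce. That gave 60 of the 32285 genes in the count matrices, and the rule used no measured value. At least 1 UMI (unique molecular identifier, standing for 1 captured transcript) was found for 55 of them. All 60 identifiers were matched in the annotation.

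Collagens are secreted as triple helices and fall into families by the structure they build. Fibrillar chains make the rope-like fibres of scar tissue, type IV chains the sheet of the basement membrane under epithelium and endothelium, and type VI chains a beaded network around cells. Small leucine-rich proteoglycans coat and space the fibres, fibronectin and elastic fibre proteins form a provisional and a stretchable network, and lysyl oxidases crosslink the product. In liver, stellate cells, portal fibroblasts and the mesothelial cells of the capsule are known sources of these transcripts, and fibrosis in steatohepatitis is their accumulation.

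The libraries were made from livers of male mice of the strain Cyr61fl/fl, aged 24 weeks, after 12 weeks of a NASH diet, which brings on fatty liver with inflammation. The groups were 2 libraries with the genotype Control and 2 with the genotype Cyr61 KO, by droplet single-cell RNA sequencing (10x Genomics). The floxed strain is given for both groups, and in which cells the gene was deleted is not given in the sources used here. Livers were stored in serum with 10% DMSO, thawed, digested and depleted of dead cells, steps that every library shared.

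After filtering, 4535 and 6679 barcodes were kept in Control 1 and Control 2, and 6742 and 4847 in KO 1 and KO 2, with 7658183 to 18681213 UMIs per library. Control 1 was the shallowest, with a median of 1203 UMIs per barcode against 1848.5 to 2814 in the others. Between 6 and 22 barcode sequences were shared by any pair of libraries, and none of these was stromal. Nothing in the labels says that the libraries came from separate animals, so a p-value here sets the group difference against the spread of these 4 libraries, which may be technical. Levels are UMIs of a gene scaled to a common library total (CPM), not divided by transcript length, so libraries and cell classes are compared here and not one gene with another.

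The mouse promoters below are shown because they belong to genes that the results turn on: Col1a2 and Col3a1 help define the stromal barcodes, and Col4a1 and Col4a2 are an oppositely oriented pair that was also found together in single KO barcodes. They are RefSeq sequences of GRCm38.p6, from 250 bases before to 50 bases after the gene start, read 5′ to 3′ on the gene's strand. Col1a2 lies on the plus strand (chr6:4505368-4505667), Col3a1 on the plus strand (chr1:45311288-45311587), Col4a1 on the minus strand (chr8:11312777-11313076) and Col4a2 on the plus strand (chr8:11312555-11312854). The annotation used for gene coordinates (GENCODE M21) starts Col1a2 at chr6:4504814, outside its window, which is therefore placed on a different start. Capitals mark 3 motifs on either strand: the TATA box as TATAAA, the CAAT box as CCAAT, and the GC box as GGGCGG. A reversed CAAT box and a GC box can share letters.
Col1a2: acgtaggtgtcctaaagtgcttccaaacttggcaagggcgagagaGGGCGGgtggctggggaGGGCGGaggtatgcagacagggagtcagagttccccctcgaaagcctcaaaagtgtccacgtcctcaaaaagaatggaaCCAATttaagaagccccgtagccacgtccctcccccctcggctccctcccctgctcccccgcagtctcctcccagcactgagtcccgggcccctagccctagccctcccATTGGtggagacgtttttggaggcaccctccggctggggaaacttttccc
Col3a1: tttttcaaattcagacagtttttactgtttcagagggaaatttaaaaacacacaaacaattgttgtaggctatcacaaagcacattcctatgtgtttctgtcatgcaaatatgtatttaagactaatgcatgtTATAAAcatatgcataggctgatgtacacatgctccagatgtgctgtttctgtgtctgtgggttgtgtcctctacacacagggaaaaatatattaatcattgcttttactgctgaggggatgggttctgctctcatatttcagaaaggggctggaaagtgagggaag
Col4a1: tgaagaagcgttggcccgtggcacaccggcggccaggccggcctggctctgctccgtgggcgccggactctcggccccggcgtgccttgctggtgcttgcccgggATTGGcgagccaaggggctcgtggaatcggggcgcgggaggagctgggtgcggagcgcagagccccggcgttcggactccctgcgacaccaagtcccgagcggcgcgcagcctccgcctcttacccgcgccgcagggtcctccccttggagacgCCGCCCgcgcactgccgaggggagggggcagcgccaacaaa
Col4a2: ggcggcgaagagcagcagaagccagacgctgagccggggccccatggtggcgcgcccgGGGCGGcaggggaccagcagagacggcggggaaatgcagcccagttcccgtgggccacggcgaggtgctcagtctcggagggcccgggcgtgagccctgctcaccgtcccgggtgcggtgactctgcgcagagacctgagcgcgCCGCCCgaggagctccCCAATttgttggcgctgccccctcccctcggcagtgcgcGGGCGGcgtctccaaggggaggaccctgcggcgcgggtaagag
The Col1a2 window held 2 CAAT box and 2 GC box matches, and the Col3a1 window 1 TATA box match and neither of the other motifs. In the annotation the Col4a1 and Col4a2 starts were 21 bases apart on opposite strands, so placed that the genes overlapped at their starts. In the printed windows of this pair, 78 bases were the same stretch of DNA. They held 1 and 3 GC box matches. Promoters were matched for 43 of the 60 genes (47 promoters). The GC box was in 59.6% of these and in 35.7% of 32851 promoters of all genes of the same length, the CAAT box in 29.8% and 37.4%, and the TATA box in 12.8% and 13.6%. Such a match is a description of the letters and not a binding site.

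Other matrix genes also lay close together. Within 200 kb of each other on 1 chromosome there were 10 pairs, among them Col3a1 with Col5a2 (24.6 kb apart), Dcn with Lum (47.0 kb), Col6a1 with Col6a2 (85.2 kb), and Col4a5 with Col4a6, whose starts were 1309 bases apart.

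The targeted gene, Cyr61, is listed as Ccn1 and encodes a secreted matricellular protein. Over all deposited barcodes it had 184 UMIs in Control 1, 149 in Control 2, 0 in KO 1 and 12 in KO 2. Among kept barcodes the counts were 170, 142, 0 and 1, of which 162 and 140 in Control lay in the stromal barcodes described next. Because the KO libraries held no such barcodes, deletion of the gene and absence of the cells that carry its transcript cannot be told apart from these counts.

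Stromal barcodes were those with a UMI of 3 or more of 6 genes: Dcn, Col3a1, Col1a2, Igfbp6, Upk3b and Msln. There were 270 of them in Control 1, 58 in Control 2 and 0 in both KO libraries. They made up 5.95% and 0.868% of kept barcodes in Control. A count of 0 allows up to 0.0445% in KO 1 and 0.0619% in KO 2 (3 counts over the total, counting error only). Their mean was 3.41% ± 3.60 (SD, n = 2), so the spread within the Control group was as large as the mean. The difference from KO did not pass the test over barcode numbers (edgeR, adjusted p = 0.0902), and an exact two-sided permutation test over 2 against 2 libraries gave 0.333, the smallest p that this design allows. Among barcodes with at least 1000 UMIs, an alternative chosen after seeing the data, the numbers were 211, 57, 0 and 0 and the difference passed (edgeR, adjusted p = 0.0286). At 2 or more of the 6 genes the Control libraries had 287 and 60 such barcodes, and over all deposited barcodes 304 and 72, with 0 in KO each time.

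The stromal barcodes carried markers of mesothelium and fibroblasts, and some of the stellate cell or pericyte list and of the cholangiocyte list. All 8 mesothelial markers, and 6 and 7 of 8 fibroblast markers, were found in at least 10% of them in Control 1 and Control 2, though Upk3b and Msln are mesothelial genes that the rule itself used. Of the 8 stellate or pericyte markers, 3 and 5 reached 10%. The contractile and mesenchymal genes among them were found, Des with 100 and 49 UMIs, Acta2 with 138 and 117, Hand2 with 70 and 60, Tagln with 25 and 39 and Pdgfrb with 21 and 10. Lrat, which makes the retinyl esters of quiescent stellate cells, was at 0 UMIs in both libraries and Reln at 0 and 1, but Lrat had 1 UMI in all 4 libraries together. Rgs5 was at 0 UMIs in the stromal barcodes of both libraries. Of the 8 endothelial markers 0 and 1 reached 10%: Cdh5 was at 0 in both, Pecam1 at 1 and 0, and Kdr had 35 and 59 UMIs (26.7 and 62.1 CPM). Of the 6 cholangiocyte markers 1 and 3 reached 10%. Krt7 had 252 and 284 UMIs, Sox9 23 and 18, and Spp1 3 and 301, while Epcam had 1 and 1, Cftr 1 and 0, and Tm4sf4 0 in both. Clustering that left all 60 matrix genes out placed 326 stromal barcodes in 1 cluster, which held 311, 64, 1 and 1 barcodes in Control 1, Control 2, KO 1 and KO 2.

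Matrix genes were 2.15% of all UMIs in the stromal barcodes of Control 1 and 2.84% in Control 2. These barcodes held 17.1% and 5.09% of each library's UMIs. Their depth differed, with a median of 1974.5 UMIs per barcode in Control 1 and 14294 in Control 2. At least 20 UMIs over both libraries were counted for 38 genes, and the ratio of Control 2 to Control 1 in CPM ran from 0.263 for Col15a1 to 2.54 for Fmod, with a median of 0.951. The exact Poisson 95% intervals of the libraries did not overlap for 17 of the 38, 11 of them higher in Control 2 and 6 higher in Control 1. Those intervals cover counting error only. The same count was not made over all genes, so 17 of 38 has no background to stand beside. With 1 library on each side no difference between animals was tested.

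**Figure D1:**
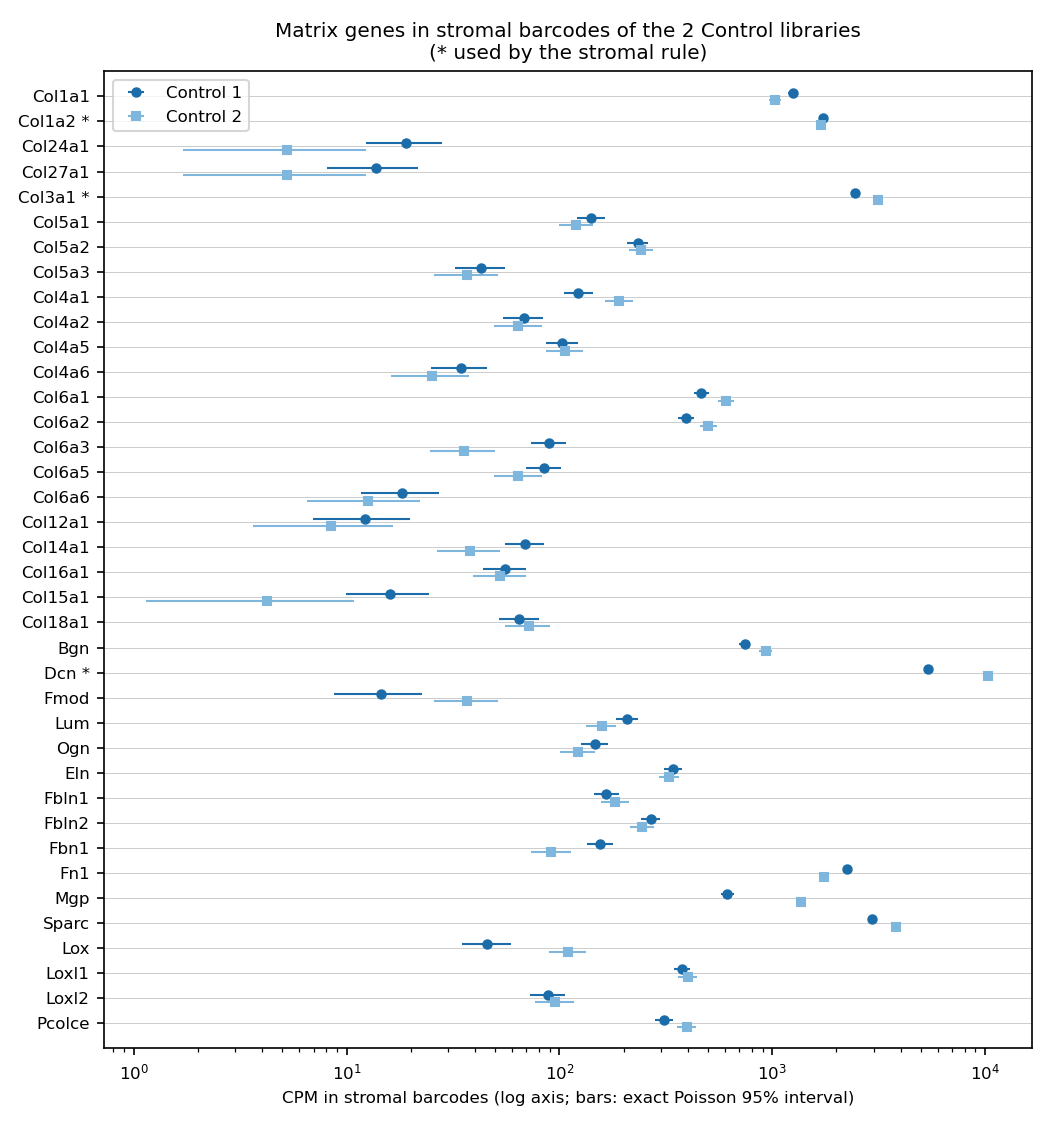
CPM of the 38 matrix genes with at least 20 UMIs in stromal barcodes (log axis) in Control 1 (dark circles) and Control 2 (light squares), with exact Poisson 95% intervals; stars mark genes that the stromal rule used. The intervals of 17 pairs do not overlap, among them Dcn, Mgp, Lox and Fmod higher in Control 2. The lowest ratios of Control 2 to Control 1 are those of Col15a1, Col24a1 and Col27a1, each on 5 UMIs or fewer in Control 2. The intervals of Col15a1 and Col27a1 overlap, and those of Col24a1 are barely apart.

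Of 11 fibrillar collagen genes, 8 had at least 20 UMIs in stromal barcodes. Col1a1, which encodes the main chain of type I collagen, measured 1247 CPM in Control 1 against 1029 CPM in Control 2. Its partner Col1a2 was at 1733 and 1684 CPM, and Col3a1, the type III chain of young scar, at 2448 and 3127 CPM, though both were used to find the barcodes. Col5a1 and Col5a2, chains of the type V collagen that starts fibrils, were at 141 and 120 CPM and at 233 and 242 CPM, and Col5a3 at 42.7 and 36.8 CPM. Intervals of the libraries overlapped for Col1a2 and the 3 type V chains but not for Col1a1 or Col3a1. Col24a1 was at 19.1 and 5.26 CPM (25 and 5 UMIs), and Col27a1 at 13.7 and 5.26 CPM (18 and 5 UMIs).

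Of the 6 type IV chains of the basement membrane, 4 had at least 20 UMIs. Col4a1 measured 123 CPM in Control 1 against 190 CPM in Control 2, its partner chain Col4a2 at 67.9 and 64.2 CPM, Col4a5 at 103 and 106 CPM, and Col4a6 at 34.3 and 25.3 CPM. Intervals overlapped for each of these except Col4a1. Col4a3 had 0 and 1 UMIs, and Col4a4 6 and 8. The multiplexins, collagens that carry glycosaminoglycan chains in the basement membrane zone, were Col18a1, at 64.8 and 71.6 CPM, and Col15a1, at 16.0 and 4.21 CPM.

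The type VI chains divided by library. Col6a1 was at 464 and 606 CPM and Col6a2 at 395 and 501 CPM, both higher in Control 2. Col6a3, the largest chain of the classical trimer, was at 89.2 and 35.8 CPM, higher in Control 1. Col6a5 was at 84.6 and 64.2 CPM and Col6a6 at 18.3 and 12.6 CPM, with overlapping intervals. Among the fibril-associated collagens, which sit on the surface of fibres, Col14a1 was at 68.6 and 37.9 CPM, Col16a1 at 55.7 and 52.6 CPM and Col12a1 at 12.2 and 8.42 CPM.

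Several proteoglycans and glycoproteins differed between the Control libraries beyond counting error. Dcn (decorin), used by the rule, was at 5373 and 10304 CPM. Bgn (biglycan) was at 741 and 929 CPM and Fmod (fibromodulin) at 14.5 and 36.8 CPM. Lum (lumican), at 208 and 157.9 CPM, and Ogn (osteoglycin), at 146 and 122 CPM, had overlapping intervals. Mgp, an inhibitor of calcification, measured 615 CPM in Control 1 against 1366 CPM in Control 2. Fn1 (fibronectin) was higher in Control 1, at 2249 against 1755 CPM, and Fbn1 (fibrillin-1, the core of microfibrils) was at 156 and 91.6 CPM. Sparc, a collagen-binding protein, was at 2954 and 3808 CPM. Elastin (Eln), at 342 and 327 CPM, and the fibulins Fbln1, at 166 and 182 CPM, and Fbln2, at 268 and 244 CPM, had overlapping intervals.

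Of the enzymes that finish collagen, Lox, which starts crosslinks by oxidising lysines, measured 45.8 CPM in Control 1 against 109 CPM in Control 2. Its relatives Loxl1, at 376 and 401 CPM, and Loxl2, at 88.5 and 95.8 CPM, had overlapping intervals. Pcolce, which helps remove the procollagen tail, was at 311 and 396 CPM, higher in Control 2.

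Splitting stromal barcodes by the mesothelial genes Upk3b and Msln separated a few members. A UMI of either gene was found in 210 of the 270 barcodes of Control 1 and in 50 of the 58 of Control 2, which left 60 and 8 without. Of the 35 genes with at least 20 UMIs that the stromal rule had not used, 14 were higher without these genes in both libraries and 5 higher with them in both. The 4 with at least a 2-fold higher level without them in both libraries were Lum, Col6a3, Col6a5 and Col15a1, and 0 were 2-fold higher with them. The rule bears on this split, since a barcode without Upk3b and Msln had to hold 3 of the other 4 rule genes. Where that was asked of both sides (184 against 60 barcodes in Control 1 and 49 against 8 in Control 2, an alternative chosen after seeing the data), 12 genes were higher without and 5 higher with, and the same 4 genes were at least 2-fold higher without. None of these counts was made over all genes, so no background stands beside them.

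Lumican was at 134 CPM with and 683 CPM without the mesothelial genes in Control 1, and at 93.7 and 1218 CPM in Control 2. Col6a3 was at 67.9 and 226 CPM in Control 1 and at 29.0 and 148 CPM in Control 2. Col6a5 was at 65.2 and 209 CPM, and at 51.3 and 277 CPM. For these 3 genes the Poisson intervals of the sides were apart in both libraries. Col15a1 rested on 2 UMIs on each side in Control 2. Col14a1 was at 40.6 and 248 CPM in Control 1, but at 37.9 and 36.9 CPM in Control 2, and Fn1 at 1859 and 4743 CPM in Control 1 but at 1750 and 1846 CPM in Control 2. Loxl1 was nearly level, at 374 and 390 CPM in Control 1 and at 401 and 406 CPM in Control 2. The barcodes without Upk3b or Msln were also shallower (medians of 1668.5 against 2065 UMIs in Control 1, and 5978.5 against 15193 in Control 2), and the part of depth in the split was not tested. Dpt, a fibroblast marker, had 121 UMIs in stromal barcodes of Control 1 and 0 in those of Control 2.

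Summed over whole libraries, almost all matrix transcripts were missing from the KO libraries. The 60 genes together had 30188 UMIs in Control 1, 29013 in Control 2, 1131 in KO 1 and 1073 in KO 2, which were 3942, 1553, 73.3 and 66.8 CPM. Most of what remained in KO was Fn1, with 897 and 866 UMIs. There were 24 genes with UMIs in Control and 0 in both KO libraries. In such sums, fewer cells of a type and less RNA per cell cannot be told apart.

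The summed libraries were compared with edgeR's quasi-likelihood test over 14150 genes (Benjamini-Hochberg adjusted p below 0.05). Of 39 matrix genes that passed the filter on low counts, 33 were lower in KO and 0 higher (also 0 at an unadjusted p below 0.05, and 0 with DESeq2), where 8.07% of all genes tested were lower and 1.72% higher. The filter keeps a gene with counts in 1 group alone: 33 of the 39 had under 10 UMIs in a KO library, so they had to differ to enter, and the count describes them without supporting more. Among the 6 with at least 10 UMIs in both KO libraries, Fn1 and Loxl2 were called. The other 21 genes were not tested. Leaving out KO 1 or KO 2 left 2 calls each time, Dcn and Mgp, of 44 and 43 matrix genes tested, so that the number of calls rested on having both KO libraries.

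**Figure D2:**
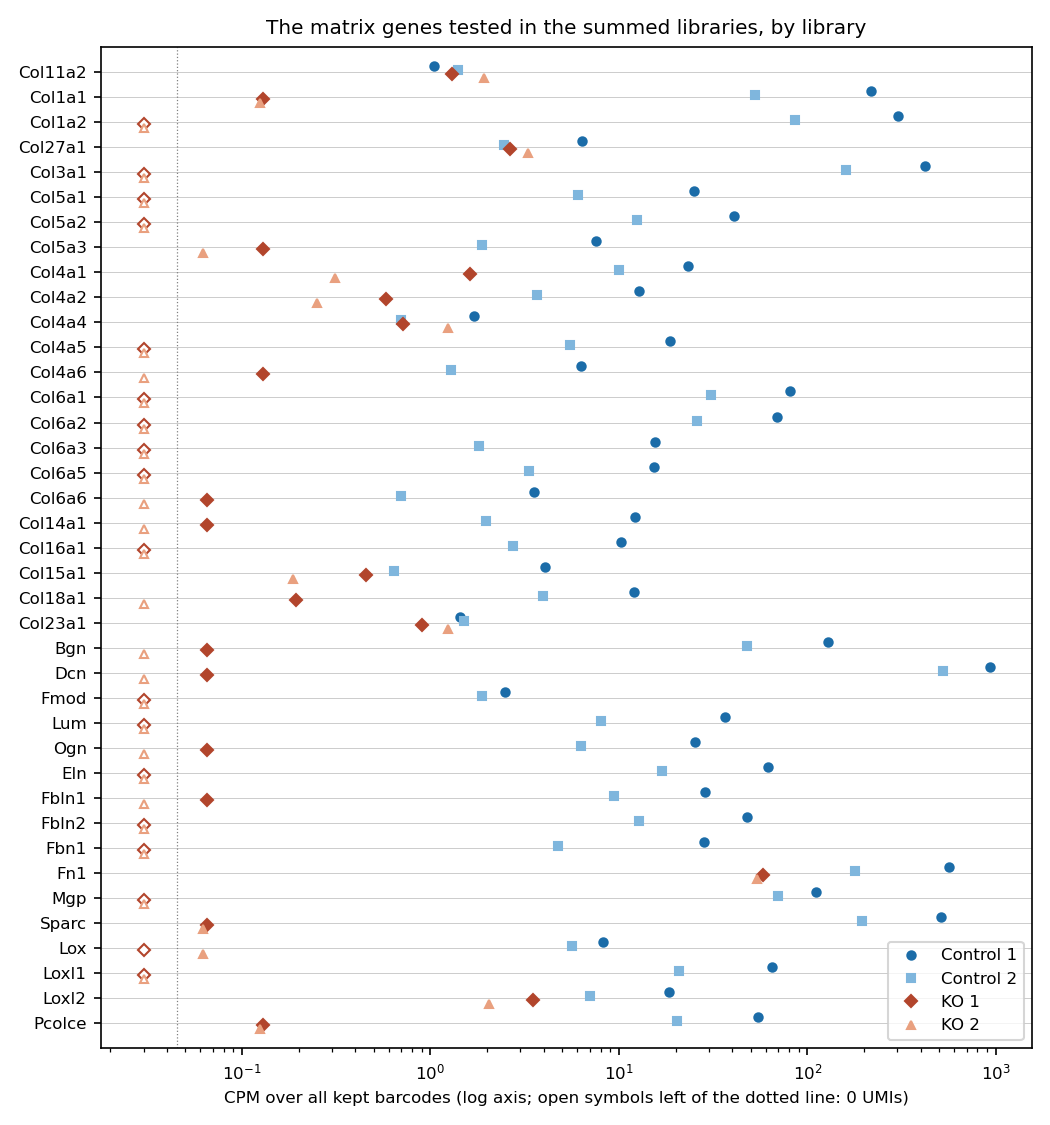
CPM over all kept barcodes (log axis) for the 39 matrix genes tested, with a symbol for each of the 4 libraries; open symbols left of the dotted line are libraries with 0 UMIs. For 36 of the 39 both Control libraries lie above both KO libraries, and Col11a2, Col27a1 and Col4a4 are the exceptions. Of the 39, 33 had under 10 UMIs in a KO library and so had to differ to enter. The same count was not made over all genes, so 36 of 39 has no background to stand beside.

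The fibrillar collagens gave 6 lower of 8 tested. Col3a1 was at 422, 160, 0 and 0 CPM in Control 1, Control 2, KO 1 and KO 2, and Col1a2 at 303, 86.0, 0 and 0 CPM. With the Control libraries pooled and against 3 counts over the KO group, that was at least 2479-fold lower for Col3a1 and at least 1565-fold lower for Col1a2. Such bounds cover counting error only and not the spread between the Control libraries. Col1a1 was at 217, 52.8, 0.130 and 0.124 CPM, and the pooled ratio of Control to KO was 791 (95% counting interval 309 to 2907). The 3 type V chains were lower as well, with adjusted p of 0.0233, 0.0164 and 0.0282 for Col5a1, Col5a2 and Col5a3.

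Col27a1 and Col11a2, fibrillar chains known from cartilage, were the exceptions. Col27a1 was at 6.40, 2.46, 2.66 and 3.30 CPM (log2 fold change -0.46 ± 0.46 SE, adjusted p = 0.56), and Col11a2 at 1.04, 1.39, 1.30 and 1.93 CPM (0.39 ± 0.47, adjusted p = 0.63). Their libraries overlapped between the groups.

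Of 5 basement membrane chains tested, 4 were lower. Col4a1 was at 23.2, 10.1, 1.62 and 0.311 CPM (-4.02 ± 0.68, adjusted p = 0.0264), and Col4a2 at 12.8, 3.69, 0.583 and 0.249 CPM (-4.17 ± 0.74, adjusted p = 0.0286). Both kept a few UMIs in each KO library. Col4a5 had 143 and 103 UMIs in Control and 0 in KO, at least 98.1-fold lower, and Col4a6 had 48, 24, 2 and 0 UMIs (adjusted p = 0.0436). Col4a4 was at 1.70, 0.696, 0.713 and 1.24 CPM and did not pass (-0.14 ± 0.61, adjusted p = 0.905).

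Type VI chains gave 4 lower of 5 tested: Col6a1 (at least 475-fold), Col6a2 (at least 405-fold), Col6a3 (at least 61.0-fold) and Col6a5 (at least 71.4-fold), each at 0 UMIs in KO. Col6a6 had 27, 13, 1 and 0 UMIs and missed the threshold (adjusted p = 0.052). Col14a1 and Col16a1 were lower (adjusted p = 0.0316 and 0.0264), as was Col18a1 (12.0, 3.96, 0.194 and 0 CPM, adjusted p = 0.0227). Col15a1, at 4.05, 0.642, 0.454 and 0.187 CPM, did not pass (adjusted p = 0.142), and neither did the transmembrane collagen Col23a1, at 1.44, 1.50, 0.907 and 1.24 CPM (adjusted p = 0.585).

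All 5 small leucine-rich proteoglycans, all 7 glycoproteins and all 4 crosslinking or processing proteins were lower. Decorin fell from 929 and 527 CPM to 1 UMI in KO 1 and 0 in KO 2, and had the smallest adjusted p of the 39 genes tested with edgeR (0.0016). Mgp went from 849 and 1312 UMIs to 0, at least 862-fold lower, and Eln from 476 and 317 UMIs to 0, at least 316-fold lower. Sparc had 3900 and 3636 UMIs in Control and 1 in each KO library, and Pcolce 417, 378, 2 and 2.

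Fibronectin and Loxl2 differed from these by staying well above 0. Fn1 was at 566, 180, 58.1 and 53.9 CPM (-2.65 ± 0.47, adjusted p = 0.0292 with edgeR), and both Control libraries lay above both KO libraries. Loxl2, the lysyl oxidase relative known for crosslinking type IV collagen, was at 18.4, 7.07, 3.50 and 2.05 CPM (-2.09 ± 0.48, adjusted p = 0.0496).

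When stromal barcodes were left out of the sums, 10 matrix genes were tested, and Dcn alone was lower (-7.24 ± 1.07, adjusted p = 0.0339 with edgeR), where 1.18% of 13369 genes were lower. Mgp (-8.53 ± 1.94, adjusted p = 0.0874) and Sparc (-5.00 ± 0.99, adjusted p = 0.0589) kept large fold changes but did not pass. Fn1 was then at -1.47 ± 0.32 (adjusted p = 0.0673) and Loxl2 at -0.12 ± 0.40 (adjusted p = 0.901). With the rest of the stromal cluster left out too, 8 were tested and Dcn alone was called (-6.12 ± 0.75, adjusted p = 0.0199), where 1.71% of 13414 genes were lower. Dcn, Mgp and Sparc had 0 or 1 UMIs in each KO library, so where tested they had to differ to enter. Dcn is also a gene of the rule that set which barcodes were left out. Mesothelial markers were low in KO as well: the 8 together were at 477, 160, 1.62 and 1.12 CPM in Control 1, Control 2, KO 1 and KO 2. The 8 fibroblast markers were at 409, 99.3, 25.6 and 25.8 CPM. Of their 395 and 415 UMIs in KO 1 and KO 2, Gsn gave 285 and 304 and Pi16 87 and 73. Cd34 had 16 and 21 there, Clec3b 6 and 16, Mfap5 0 and 1, Entpd2 1 and 0, and Pdgfra and Dpt 0 in both.

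Other genes of collagen production were tested in the same fit. Of 20 genes for collagen folding and modification, 17 were tested and 8 were lower, among them the collagen chaperone Serpinh1, at 151, 37.1, 0.194 and 0 CPM (adjusted p = 0.0132), and P3h4 and P3h3, of the prolyl 3-hydroxylase family (adjusted p = 0.0121 and 0.0199). Crtap was at 36.3, 12.7, 3.43 and 2.93 CPM (adjusted p = 0.026). Of 8 genes for procollagen processing, 4 were tested. Bmp1, which cuts the procollagen tail, and Adamts2, which cuts its head, were lower (adjusted p = 0.0151 and 0.0215), while Adamts14 was higher (5.61, 5.30, 13.3 and 13.6 CPM, adjusted p = 0.0179).

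Of 15 collagen receptors, 12 were tested, 4 were lower and 1 higher. The discoidin receptors Ddr1 and Ddr2 were lower, Ddr1 at 21.8, 9.10, 1.30 and 1.37 CPM (adjusted p = 0.0151) and Ddr2 with 88, 55, 0 and 0 UMIs (adjusted p = 0.0264). Pirb and Lair1, inhibitory receptors of leukocytes, were lower by less (-1.02 ± 0.22 and -0.78 ± 0.17, adjusted p = 0.0407 and 0.0444), and the integrin chain Itga2 was higher (1.24 ± 0.18, adjusted p = 0.02). Of 48 other matrix proteins, 33 were tested and 24 were lower, among them Efemp1 (433, 414, 0 and 0 UMIs), Ecm1 (656, 668, 81 and 85 UMIs), Prelp (127, 126, 0 and 0) and Has1 (38, 64, 0 and 0), with adjusted p of 0.0123, 0.0132, 0.0143 and 0.0143. Of the 4 lists together 38 of 66 genes tested were lower, beside 8.07% of all genes. As with the matrix genes, many passed the count filter through Control alone: 26 of the 38 had under 10 UMIs in a KO library and 9 had 0 in both, so they had to differ to enter. Without KO 1 or without KO 2, 0 were lower with edgeR after adjustment (47 and 49 at an unadjusted p below 0.05).

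Most matrix transcripts left in KO lay in immune cells, 97.7% of 2204 UMIs and 88.7% of the 441 that were not Fn1. Immune classes were made by clustering without the 60 genes and were called by their markers, and stromal barcodes were left out of them. Outside stromal barcodes Fn1 had 4833 UMIs, 94.5% of them in the monocyte or macrophage-like class and 1.92% in conventional dendritic-like barcodes. Fibronectin is made by monocyte-derived macrophages as well as by stroma.

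In the monocyte or macrophage-like class, Fn1 was at 1542 CPM in Control 1, 1107 in Control 2, 987 in KO 1 and 1247 in KO 2. KO 2 lay between the Control libraries, and the difference did not pass (-0.33 ± 0.20, adjusted p = 0.553 with edgeR, in a class where 1.83% of 6989 genes were called). The spread over barcodes differed, however: a UMI of Fn1 was found in 38.1% and 39.2% of these barcodes in Control and in 49.2% and 66.4% in KO. Thinned to 500 UMIs per barcode the shares were 21.8%, 15.6%, 24.0% and 35.7%. The highest single barcode held 169 and 364 Fn1 UMIs in Control, and 28 and 39 in KO.

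Fn1 levels were also set out by finer cluster of the class. In the cluster led by C1qa, C1qb and C1qc, Fn1 measured 3301 CPM in Control 1 against 3836 CPM in Control 2. That cluster had 143 and 68 barcodes in Control and 7 and 2 in KO, where Fn1 had 44 and 0 UMIs, too few barcodes for a test. In the cluster led by Lyz2, Chil3 and Wfdc17, with 148, 146, 138 and 81 barcodes, Fn1 was at 417 and 631 CPM in Control and at 1050 and 1181 CPM in KO. In that led by Adgre4, Ear2 and Ace, it was at 382 and 401 CPM in Control and at 665 and 1756 CPM in KO. In both of these clusters the KO libraries lay above both Control libraries. A fit over all genes of each, chosen after these values were seen, gave 0.90 ± 0.21 for the first (adjusted p = 0.152, where 0.123% of 5710 genes were called) and 1.50 ± 0.37 for the second (adjusted p = 0.343, where 0 of 3086 genes were called and 218 had an unadjusted p below 0.05), so neither passed.

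With the C1q-led cluster left out of the class, an alternative also chosen after these values were seen, Fn1 was at 409, 564, 958 and 1252 CPM in Control 1, Control 2, KO 1 and KO 2, over 316, 399, 306 and 138 barcodes. Both KO libraries were then above both Control libraries, and the fold had the other sign (1.08 ± 0.20, edgeR adjusted p = 0.0137, where 0.546% of 6589 genes were called). The cluster left out held 1093 and 899 Fn1 UMIs in Control and 44 and 0 in KO. As it was left out after its Fn1 level was seen, this p-value describes and does not test. The value for the whole class therefore depended on the C1q-led barcodes, which were fewer in KO.

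**Figure D3:**
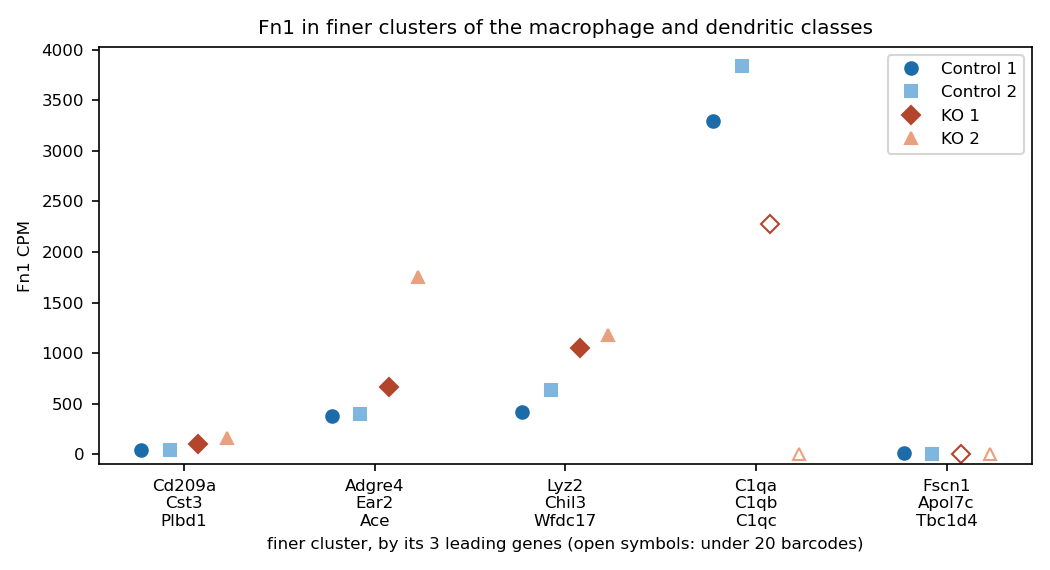
Fn1 CPM in the finer clusters of the monocyte or macrophage-like and conventional dendritic-like classes, each named by its 3 leading genes, with a symbol for each library; open symbols stand for under 20 barcodes. The C1q-led cluster is highest in Control and nearly empty in KO, while in the Lyz2-led and Adgre4-led clusters both KO libraries sit above both Control libraries.

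In conventional dendritic-like barcodes, Fn1 was at 36.2 and 39.7 CPM in Control and at 119 and 113 CPM in KO (27, 30, 13 and 23 UMIs). The KO libraries were both higher, and the fit gave 1.49 ± 0.38 (adjusted p = 0.131, where 0.234% of 5554 genes were called). The change in this class differed from that in the monocyte or macrophage-like class: macrophage minus dendritic was -1.75 ± 0.43 (edgeR interaction, adjusted p = 0.0108, where 0.998% of 7915 genes were called). Without the C1q-led cluster, a choice made after the Fn1 levels were seen, that difference was -0.34 ± 0.40 and did not pass (adjusted p = 0.962, where 0.311% of 7712 genes were called). The class held 480, 249, 62 and 43 barcodes. The 12 monocyte and macrophage markers together were at 1076, 1551, 2902 and 2663 CPM in it, with 12, 12, 8 and 7 of them detected, and their part in the Fn1 difference was not tested.

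In T cell-like barcodes Fn1 was at a few CPM (17, 22, 10 and 8 UMIs) and did not pass (-1.70 ± 0.55, adjusted p = 0.202 with edgeR, where 0.887% of 11504 genes were called). It did pass with no filter (adjusted p = 0.0337), with a replicate block (0.0146) and without Control 2 (0.0407), and over the other alternatives the adjusted p ran up to 0.836. Against B cell-like barcodes, which had 7, 8, 2 and 4 Fn1 UMIs, the difference of the change was 2.23 ± 0.58 (edgeR interaction, adjusted p = 0.0494, where 0.878% of 8885 genes were called). Against T cell-like barcodes it was 1.39 ± 0.44 (adjusted p = 0.17, where 0.952% of 10403 genes were called). Without the C1q-led cluster these differences were 3.39 ± 0.59 and 2.64 ± 0.45 (adjusted p = 0.000102 and 0.000444, where 0.637% and 0.676% of all genes were called). The cluster was left out after its Fn1 level was seen, so these p-values describe and do not test. Transcripts of stromal matrix genes other than Fn1 were also higher in B cell-like barcodes of Control (10.5, 5.73, 1.24 and 0.479 CPM), and their part in the few Fn1 UMIs there was not tested.

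Outside stroma and macrophages, a few collagens and Loxl2 were found in lymphocytes and dendritic cells at low levels in every library. Col27a1 had 166 UMIs outside stromal barcodes, 63.3% in B cell-like and 27.1% in conventional dendritic-like barcodes. In B cell-like barcodes it had 2, 25, 39 and 39 UMIs in Control 1, Control 2, KO 1 and KO 2 (0.42 ± 0.38, adjusted p = 0.73, where 0.707% of 9895 genes were called), and in dendritic-like barcodes 23, 10, 1 and 11 (0.66 ± 0.64, adjusted p = 0.875). Loxl2 had 153 such UMIs, 51.0% in T cell-like and 34.0% in B cell-like barcodes. Its T cell-like counts were 11, 20, 26 and 21 (0.08 ± 0.44, adjusted p = 0.961), and its B cell-like counts 6, 13, 22 and 11 (-0.43 ± 0.53, adjusted p = 0.816). As many as 5 of its UMIs came from 1 T cell-like barcode.

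Col11a2 (83 UMIs outside stroma), Col23a1 (71), Col4a4 (43) and Col20a1 (23) were each found most in T cell-like barcodes, with 53.0%, 49.3%, 53.5% and 69.6% of those UMIs. In that class Col11a2 had 5, 14, 9 and 16 UMIs (adjusted p = 0.969) and Col23a1 2, 14, 6 and 13 (adjusted p = 0.94). T cell-like barcodes were also the most numerous in every library, from 2100 to 3520. Neither of these 2 passed the threshold with edgeR there.

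**Figure D4:**
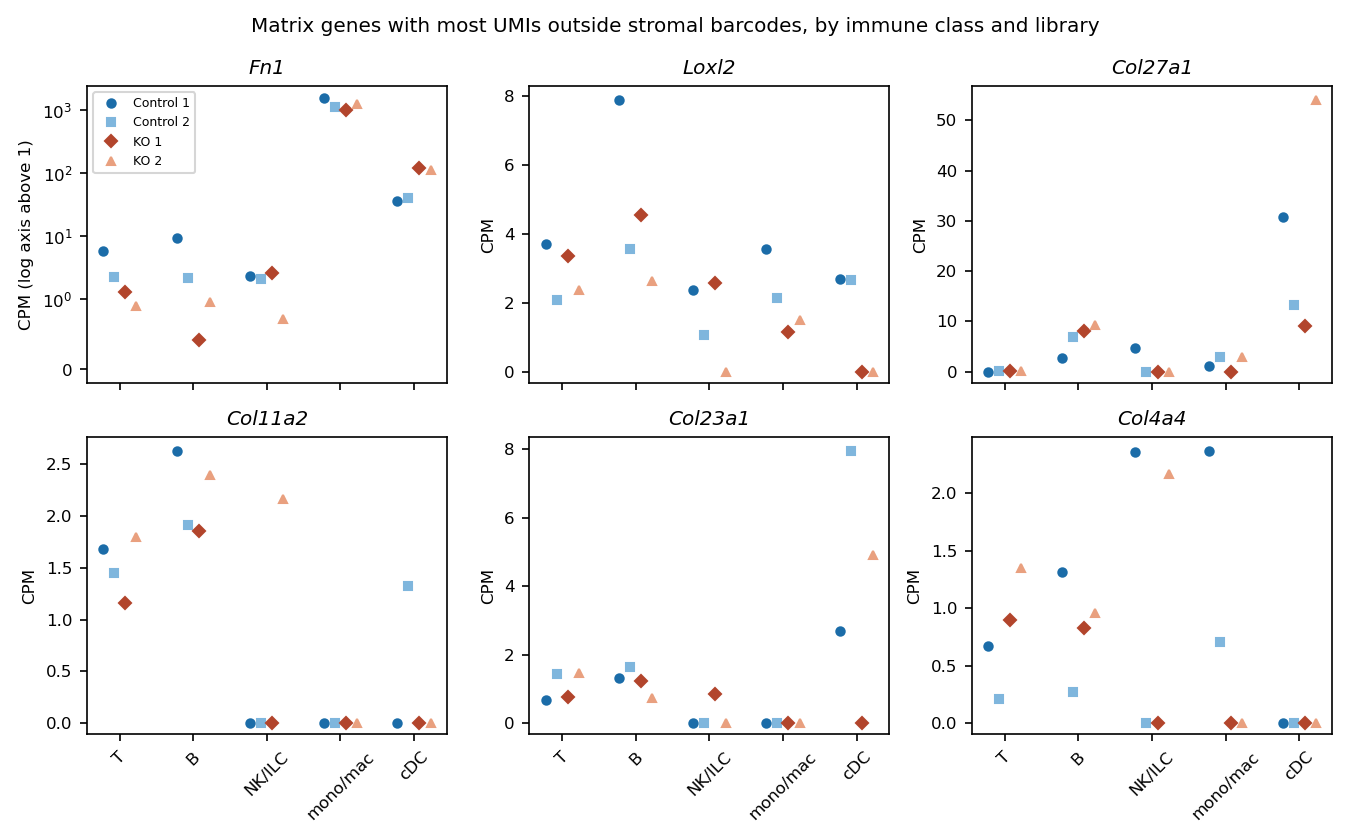
CPM of the 6 matrix genes with at least 10 UMIs in both KO libraries, by immune class (T, B, natural killer or innate lymphoid, monocyte or macrophage, conventional dendritic) and library; the Fn1 axis is logarithmic above 1 CPM. Fn1 stands highest in the monocyte or macrophage-like class, Col27a1 in dendritic-like and B cell-like barcodes, and the other 4 stay under 10 CPM in the classes shown.

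Transcripts of the stromal genes were also found at low level in immune barcodes, more so in the Control libraries. The 32 genes with at least 20 stromal UMIs and at least 90% of Control UMIs in stromal barcodes were used for this, without the 3 that define the barcodes. A UMI of at least 1 of them was found in 1.86% (95% exact binomial interval 1.32% to 2.53%) of T cell-like barcodes in Control 1, 0.881% (0.599% to 1.25%) in Control 2, 0.16% in KO 1 and 0.162% in KO 2. In stromal barcodes the share was 99.3% and 100%. Median depths of the T cell-like barcodes were 1203.5, 2377.5, 2157 and 3297 UMIs. Thinned to 500 UMIs, the shares were 0.905%, 0.369%, 0.0319% and 0.0404%.

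Summed over the 32 genes, T cell-like barcodes were at 23.9, 7.03, 0.772 and 0.45 CPM, B cell-like at 10.5, 5.73, 1.24 and 0.479 CPM, and monocyte or macrophage-like at 35.5, 10.6, 4.55 and 3.01 CPM. Whether these UMIs were free RNA captured with the immune cells was not tested. The single matrix gene called in an immune class was Dcn, which in T cell-like barcodes had 12, 24, 1 and 0 UMIs (-5.34 ± 0.86, adjusted p = 0.0293 with edgeR, where 0.591% of 11504 genes were lower). With 1 and 0 UMIs in KO, Dcn had to differ to pass the count filter there. The share of T cell-like barcodes with a Dcn UMI was 0.524%, 0.653%, 0.0319% and 0%, against 99.6% and 100% of stromal barcodes. The call was lost without KO 1 (adjusted p = 0.0504) or KO 2 (0.305), and without Control 2 the gene did not pass the count filter.

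**Figure D5:**
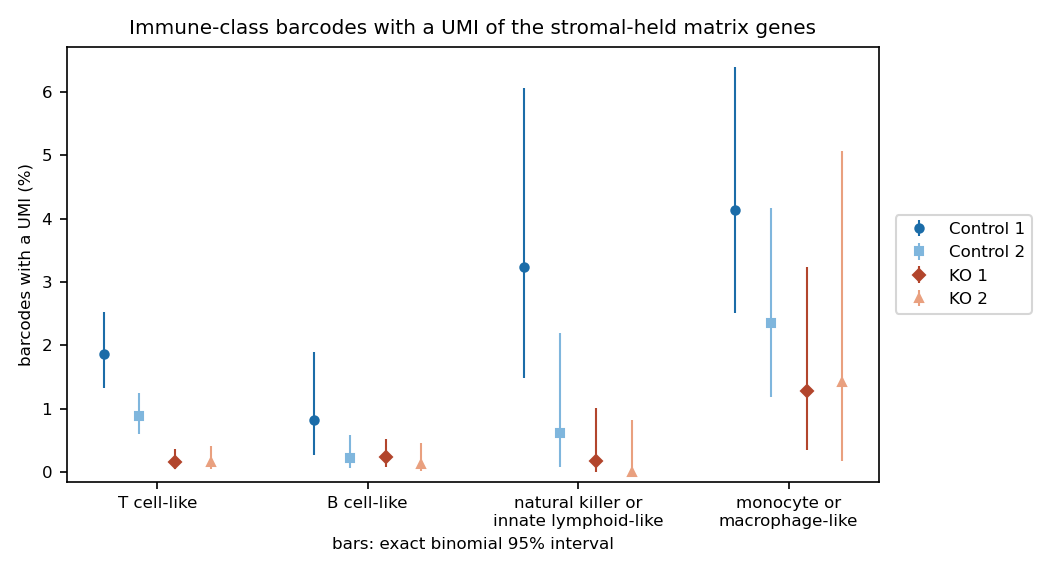
Percent of barcodes of 4 immune classes with a UMI of the stromal matrix genes, by library, with exact binomial 95% intervals. In T cell-like barcodes both Control libraries (1.86% and 0.881%) lie above both KO libraries (0.16% and 0.162%), and the intervals of the smaller classes are wide.

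In KO, most UMIs of the type IV pair sat in 3 barcodes. Col4a1 had 25 UMIs in KO 1 and 5 in KO 2, and Col4a2 had 9 and 4. A single KO 1 barcode of an unnamed cluster led by immunoglobulin and cycling genes held 17 Col4a1 and 8 Col4a2 UMIs among 5651, with 3 UMIs of Cdh5, 1 of Pecam1 and 1 of Kdr, endothelial genes. In each KO library 1 more barcode, placed in the stromal cluster, held 3 and 1 (KO 1) and 4 and 3 (KO 2) UMIs of Col4a1 and Col4a2. These had 2 UMIs of Pecam1 each, 1 and 2 of Cdh5, and 0 of Dcn, Col3a1 and Col1a2. The genes were thus seen together in every KO barcode with at least 3 UMIs of either.

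Immune cells differed in a few genes that bind or process collagen. In the monocyte or macrophage-like class the receptors Lair1 (138, 111, 55.7 and 34.6 CPM, -1.50 ± 0.25, adjusted p = 0.00541), Mrc1, which takes up collagen fragments (-2.41 ± 0.51, adjusted p = 0.0238), and Itgb1 (-0.88 ± 0.21, adjusted p = 0.0499) were lower, 3 of 6 receptors tested. Of 5 other matrix proteins tested there, Ecm1 (-1.90 ± 0.28, adjusted p = 0.00213) and Thbs1 (-1.33 ± 0.30, adjusted p = 0.034) were lower. In all 5 both KO libraries were below both Control libraries, where 1.57% of all genes tested in the class were lower. The share of C1q-led barcodes in the class, 143 of 459 and 68 of 467 in Control against 7 of 313 and 2 of 140 in KO, moved with them. With that cluster left out, Lair1 still passed (-1.33 ± 0.25, adjusted p = 0.0154), Itgb1, Ecm1 and Thbs1 did not (-0.55 ± 0.20, -0.44 ± 0.44 and -0.84 ± 0.31), and Mrc1 had too few counts to test. Lair1 and Ecm1 passed under each of the other alternatives run, while Mrc1 and Itgb1 were lost with DESeq2 and without Control 1, Itgb1 and Thbs1 at 1000 UMIs and without KO 2, Mrc1 without KO 1, Itgb1 with stromal barcodes kept, and all 3 with doublets kept.

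In natural killer or innate lymphoid-like barcodes, Itga2, a collagen-binding integrin chain of natural killer cells, was at 42.5, 60.0, 127 and 154 CPM (1.23 ± 0.22, adjusted p = 0.000704), and Adamts14 at 68.4, 76.9, 160 and 135 CPM (0.84 ± 0.20, adjusted p = 0.0183). Both were higher in KO in both libraries, where 0.939% of 7883 genes were higher. The class joined a cluster led by Gzma, Klra8 and Klra4, which also had Adamts14 among its 10 leading genes, with one in which Xcl1 and Kit were among them. The first made up 26.6% and 38.5% of the class in Control and 68.1% and 66.4% in KO. Within it Itga2 was at 99.7, 106, 176 and 207 CPM (0.72 ± 0.25, adjusted p = 0.357) and Adamts14 at 118, 120, 190 and 167 CPM (0.41 ± 0.24, adjusted p = 0.622), where 0.178% of 6163 genes were called. In the other, Itga2 was at 22.3, 33.3, 24.0 and 38.7 CPM (-0.05 ± 0.44, adjusted p = 0.982) and Adamts14 at 51.0, 51.6, 95.9 and 65.9 CPM (0.47 ± 0.31, adjusted p = 0.662), where 0.34% of 5299 genes were called. Neither gene passed within either cluster in these fits, chosen after seeing the data. Without Control 1, Control 2 or KO 1 the class call of Adamts14 was lost (adjusted p from 0.0924 to 0.243). In T cell-like, B cell-like, neutrophil-like and conventional dendritic-like barcodes, 0 of 62 tests of genes from these 4 lists passed with edgeR (13 at an unadjusted p below 0.05) or with DESeq2 (3 unadjusted).

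Several collagens were hardly measured in any library. Col9a1, Col9a2, Col22a1, Col25a1 and Col28a1 were at 0 UMIs in all 4, which allows up to 0.161 CPM in the deepest library and 0.392 CPM in Control 1. Col2a1 and Col4a3 had 1 UMI each, both in Control 2. The hemidesmosome collagen Col17a1 had 0, 4, 4 and 5 UMIs, and the anchoring fibril collagen Col7a1 3, 0, 9 and 3. Differences in these genes were not detectable at this depth.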

How the data were processed

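Liver cells were profiled with 10x droplets in 2 Control and 2 Cyr61 KO libraries. The values the authors deposited were unnormalized UMI counts in sparse matrices. The submitters' processing notes name Cell Ranger 3.1.0 and the build mm10. Coordinates came from GENCODE M21 (GRCm38), which held 99.6% of gene identifiers.

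Barcodes with at least 500 UMIs, 250 genes and at most 25% mitochondrial UMIs were kept. Scrublet scores (scanpy 1.11.5) removed the top 0.8% per 1000 barcodes in every library, since its own threshold marked 0, 0, 1 and 84 barcodes. Barcodes were clustered without the 60 matrix genes (2000 variable genes, 30 components, 15 neighbours, Leiden resolution 1 and, for finer clusters, 2) and named from 18 marker lists. A cluster stayed unnamed where under 3 markers were detected, a second list came close, or its leading genes went against the name.

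Counts were summed per library, over all kept barcodes and per class with at least 20 barcodes in each library, and tested with edgeR 4.0.16 (TMM, filterByExpr, quasi-likelihood, no covariate). A fold is KO over Control on the log2 scale with its SE, n = 2 libraries a group. Folds against 0 counts are bounds against 3 counts over the KO group, with the Control libraries pooled, and leave out the spread between those libraries. The test was tried on simulated counts first. Alternatives were DESeq2 1.42.0, relative log expression factors, no filter, a replicate block, other barcode filters and gates, other clustering, and each library left out.

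The genes, lists, markers and tests were chosen with earlier results of these data known. In stromal barcodes, genes with at least 20 UMIs were named; in the fits, matrix genes that passed the filter, and up to 4 genes per further list and direction by smallest p.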

Additional observations from a re-analysis of the deposited data

Results flagged for a closer look

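The change of Fn1 with genotype differed between some cell classes but not others, by a test of the difference itself (edgeR interaction of class with genotype, with the library as a block). The change in monocyte or macrophage-like barcodes was 2.23 ± 0.58 higher on the log2 scale than that in B cell-like barcodes (adjusted p = 0.0494, where 0.878% of 8885 genes were called). It was -1.75 ± 0.43 against conventional dendritic-like barcodes (adjusted p = 0.0108, where 0.998% of 7915 genes were called). The first rests on 7, 8, 2 and 4 Fn1 UMIs in B cell-like barcodes of Control 1, Control 2, KO 1 and KO 2, where other stromal matrix transcripts were also higher in Control (10.5, 5.73, 1.24 and 0.479 CPM), and their part was not tested. The second was -0.34 ± 0.40 (adjusted p = 0.962) with the C1q-led cluster left out, which had 143 and 68 barcodes in Control and 7 and 2 in KO, and the first was then 3.39 ± 0.59 (adjusted p = 0.000102). That cluster was left out after its Fn1 level was seen, so these p-values describe and do not test. With the whole class kept, the difference did not pass against T cell-like barcodes (1.39 ± 0.44, edgeR interaction, adjusted p = 0.17). Nor did it pass against natural killer or innate lymphoid-like (0.36 ± 0.96, adjusted p = 0.969) or neutrophil-like barcodes (3.37 ± 3.90). With 2 libraries a group, no single value was tested for standing apart from its group.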

How the results depend on the processing

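With 1 library left out at a time, the lower matrix genes in whole libraries numbered 2 to 38 (2 without KO 1 and 2 without KO 2, where 11 and 13 of all genes passed), the calls in immune classes 0 to 1 (Dcn without Control 1 and Fn1 without Control 2, both in T cell-like barcodes), the lower genes of the 4 further lists 0 to 61, and those in the monocyte or macrophage-like class 3 to 6. Under DESeq2, relative log expression factors, no filter, other barcode filters and doublets kept, 31 to 38 matrix genes were lower, and 0 were higher under any alternative. Calls over all genes, higher or lower, ran in these fits from 1152 of 14351 (all deposited barcodes) to 3472 of 23487 (no filter). With stromal barcodes left out 1 matrix gene was lower, and 1 with their cluster left out as well, an alternative chosen after seeing the data. Calls in immune classes were 6 with no filter, in T cell-like and B cell-like barcodes, and 2 with doublets kept, when Fn1 in conventional dendritic-like barcodes passed (1.92 ± 0.30, edgeR adjusted p = 0.0443). At Leiden resolution 2 the 1 call was Dcn in natural killer or innate lymphoid-like barcodes and no longer in T cell-like ones. Lower genes of the further lists in the monocyte or macrophage-like class were 3 with DESeq2, 3 at 1000 UMIs or more, 2 with doublets kept and 1 with the C1q-led cluster left out, when Fn1 was at 1.08 and passed. That cluster was left out after its Fn1 level was seen, so this Fn1 call describes and does not test. The share of stromal barcodes passed at 1000 UMIs or more (edgeR adjusted p = 0.0286). With no filter, 1 difference of the Fn1 change between classes passed instead of 2. The causes were not tested.

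Summed matrix CPM in stromal barcodes, with the matrix genes of the stromal rule included, was 20547 and 26926 over all deposited barcodes, and 20596 and 27173 with doublets kept, in Control 1 and Control 2. The share of T cell-like barcodes with a stromal transcript thinned to 0.905%, 0.369%, 0.0319% and 0.0404%, at 500 UMIs.

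Of 723 values of single genes under an alternative, 597 kept their direction and their side of the threshold, 95 lost a call, 15 gained one and 16 changed sign. The last were all of genes that had not passed, except Col4a1, at 0.67 with the stromal cluster left out. Col4a4 was at 0.77 with stromal barcodes left out and 0.77 with their cluster left out too. In T cell-like barcodes Col11a2 was at 0.10 with doublets kept and 0.027 with the matrix genes kept for clustering, and Loxl2 at -0.43 at Leiden resolution 2. With 1 library left out, Col27a1 ran from -0.97 to 0.22 and Col4a4 from -0.66 to 0.44 in whole libraries, Col11a2 from -0.43 to 0.20, Col23a1 from -0.66 to 0.77 and Loxl2 from -0.35 to 0.36 in T cell-like barcodes, and Col27a1 from -1.40 to 1.19 in conventional dendritic-like barcodes.

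The replicate numbers 1 and 2 stand in both groups, but nothing says that they pair libraries; the deviations of Control 1 and KO 1 correlated at 0.127 over 14150 genes. With a replicate block, 35 matrix genes were lower in whole libraries, 53 of the further lists, and 2 calls were made in immune classes, with Fn1 in T cell-like barcodes added. In whole libraries the block fit called 3677 of 14150 genes, higher or lower, against 1386 without the block, so calls rose for genes at large.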
